A study of Mus musculus with 42 samples.

Results

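The genes described here are the xenobiotic cytochrome P450 genes of mouse families 1, 2 and 3, read in 2 organs, kidney and liver, of UM-HET3 males, a mouse stock of mixed genetic background. A gene was selected on its symbol, which had to name a member of one of these families, and on its counts, which had to sum to at least 50 over the 42 libraries; this gave 41 genes of 43629 in the table. Of 56 genes with such a symbol, 15 fell below the limit, and 2 genes of family 2 were left out beforehand. The sum of counts chose the genes and is given only as a description: just inside the limit were Cyp2a22 with 69 counts, Cyp1a1 with 74 and Cyp2c40 with 106, and just outside it were Cyp2c66 with 46, Cyp2c65 with 44 and Cyp3a16 with 43.

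Mice began a diet with 1 of 6 compounds at 3 months of age, ate it for 1 month, and gave tissue at 4 months; the control diet was Purina 5LG6 without a compound, fed to littermates. Kidney libraries came from mice fed AS-703026 at 30 ppm (a MEK inhibitor), ascorbyl-palmitate at 6.3 ppm (a fat-soluble ester of vitamin C), AZD8055 at 20 ppm and KU0063794 at 10 ppm (both inhibitors of the mTOR kinase), enzastaurin at 75 ppm (an inhibitor of protein kinase C beta) and GDC-0941 at 50 ppm (an inhibitor of PI3 kinase), with 4 libraries for each compound and 6 for the control diet. Liver libraries came from mice fed AS-703026, enzastaurin or GDC-0941 at the same doses, 4 for each. Liver of control mice was not analysed here, so a difference in liver is between compounds and does not say which of the groups differs from an untreated liver. RNA was measured by CEL-seq, which reads the 3′ end of each polyadenylated RNA, and a kidney library held between 863605 and 5691067 counts, a liver library between 1084591 and 4361115. The submitters call the libraries biological replicates; the labels do not say whether mice shared a cage or a litter within a group, so p-values measure the spread between these samples. The tissue labels fitted their markers: 8 hepatocyte markers summed to at least 75553 CPM in every liver and at most 1993 CPM in any kidney, and 6 proximal tubule markers to at least 12483 CPM in every kidney and at most 25.4 CPM in any liver, where Slc5a2 was at 0.

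Cytochromes P450 of these families are haem enzymes of the endoplasmic reticulum that oxidise drugs, other foreign chemicals, steroids and fatty acids, with electrons passed on by the reductase Por. Liver carries most of this capacity, and its genes are known to answer ligand-sensing receptors: family 1 the aryl hydrocarbon receptor (Ahr), Cyp2b and many Cyp2c genes the constitutive androstane receptor (Nr1i3), and Cyp3a genes the pregnane X receptor (Nr1i2). The families lie in tandem clusters of near copies, and several are known to fall in liver during inflammation.

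The clusters set how well genes can be told apart. The 13 Cyp2c members lie on chromosome 19 between 39007019 and 44029208, the 5 Cyp3a members on chromosome 5 between 137892932 and 146113287, the 5 Cyp2d members on chromosome 15 between 82370527 and 82794294, and the 5 Cyp2j members on chromosome 4 between 96027534 and 96664154 (GRCm38). In the last 300 bases of its longest transcript, Cyp2c67 shared 63.2% of its 24-base words with Cyp2c40, Cyp2c68 shared 56.0% with Cyp2c40, and Cyp2a4 shared 56.3% with Cyp2a5, so counts of these genes are uncertain. The same measure was 29.6% for Cyp2d26 with Cyp2d22, 23.5% for Cyp3a25 with Cyp3a59 and 0 for Cyp2d22, Cyp2j13, Cyp2f2, Cyp3a11, Cyp3a13 and Cyp1a2. It looks only from the end of the named gene, so a 0 does not exclude reads from the end of another gene. The end of Cyp2d26 shares words with Cyp2d22, as above, and that of Cyp3a16 shares 23.8% with Cyp3a11.

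Promoters are shown for 4 members on which the results turn: Cyp3a25, lower in liver with AS-703026, Cyp1a2 and Cyp3a13, whose values went in opposite directions in the same livers, and Cyp2j13, the member with the smallest p in the AS-703026 kidney comparison. Cyp2d22, the other member lower in those livers, has no entry in the promoter table used. Each is the 250 bases before the transcription start, on the strand of the gene (minus for all 4), from RefSeq on GRCm38.p6, at chr5:146009619-146009868, chr9:57683656-57683905, chr5:137921620-137921869 and chr4:96077548-96077797 in the order printed (for Cyp1a2, 48 bases from the start in GENCODE). Capitals mark matches on either strand to AGGTCA (a half-site of nuclear receptors), TTGCNNAA (a C/EBP motif) and GCGTG (the core bound by the aryl hydrocarbon receptor).
Cyp3a25: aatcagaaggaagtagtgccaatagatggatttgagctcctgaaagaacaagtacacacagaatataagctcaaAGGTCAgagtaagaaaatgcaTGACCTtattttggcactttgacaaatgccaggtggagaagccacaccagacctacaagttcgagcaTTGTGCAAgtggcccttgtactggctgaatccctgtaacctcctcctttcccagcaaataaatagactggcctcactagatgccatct
Cyp1a2: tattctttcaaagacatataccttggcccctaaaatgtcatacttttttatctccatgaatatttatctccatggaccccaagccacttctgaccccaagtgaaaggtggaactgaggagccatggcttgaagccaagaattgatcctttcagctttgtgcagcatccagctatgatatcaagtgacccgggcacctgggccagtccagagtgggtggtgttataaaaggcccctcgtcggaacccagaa
Cyp3a13: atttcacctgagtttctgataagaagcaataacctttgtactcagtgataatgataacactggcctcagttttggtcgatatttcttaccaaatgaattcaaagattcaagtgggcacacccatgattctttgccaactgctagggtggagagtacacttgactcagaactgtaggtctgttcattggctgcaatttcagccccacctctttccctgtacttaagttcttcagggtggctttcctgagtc
Cyp2j13: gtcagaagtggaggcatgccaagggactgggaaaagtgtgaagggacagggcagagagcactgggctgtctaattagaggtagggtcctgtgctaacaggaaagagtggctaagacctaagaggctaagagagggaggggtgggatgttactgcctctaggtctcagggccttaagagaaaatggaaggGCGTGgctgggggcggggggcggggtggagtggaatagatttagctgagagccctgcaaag
The Cyp3a25 window held 2 half-sites and 1 C/EBP match, the Cyp2j13 window held 1 GCGTG, and the letters searched are not in the Cyp1a2 and Cyp3a13 windows; no matches overlapped. Among 32851 RefSeq promoter windows of this length, 14.0% held AGGTCA, 9.56% TTGCNNAA and 28.2% GCGTG. Of the 38 windows of the 35 members with an entry, 10 held AGGTCA, 9 held TTGCNNAA and 7 held GCGTG. A match describes the letters and was not tested as a binding site.

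In liver the members took between 1.85% and 3.62% of a library's counts, and in kidney between 0.0949% and 0.303%. Levels compared between the tissues are counts scaled to a common library total (CPM), here by the raw total; CEL-seq counts 3′ ends, so they are shares of counts and not scaled by length. Liver was led by Cyp2f2, which activates naphthalene, at 5950 ± 1515 CPM (SD, n = 12), by Cyp3a11, the main inducible member of its subfamily, at 5574 ± 1839 CPM, and by Cyp2c29, an epoxygenase of fatty acids, at 4322 ± 1361 CPM. Neighbours in this order did not differ by more than their spread. Cyp1a2, which oxidises aromatic amines and caffeine, followed at 2803 ± 1127 CPM, and Cyp2d10, Cyp2d26, Cyp2c70 (the enzyme that makes muricholic acids in mice), Cyp2c50 and Cyp3a25 lay between 1144 and 1476 CPM. By subfamily, Cyp2c genes made up 31.2% of the liver counts of the members, Cyp3a genes 24%, Cyp2f2 20.4%, Cyp2d genes 10.7% and Cyp1a genes 9.48%.

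Kidney held another set. Cyp2j5, an arachidonic acid epoxygenase of the proximal tubule, stood at 1176 ± 230 CPM (SD, n = 30), against 342 ± 28.0 CPM in liver (n = 12). Cyp2j13 reached 438 ± 146 CPM in kidney, with at least 132 CPM in every library, and had 2 counts in all 12 liver libraries together. Cyp2a4, known as a testosterone hydroxylase, stood at 317 ± 153 CPM in kidney and 0.306 ± 0.399 CPM in liver. The Cyp2j genes together made up 70.2% of the kidney counts of the members, the Cyp2a genes 18.1% and the Cyp2d genes 8.47%.

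**Figure D1:**
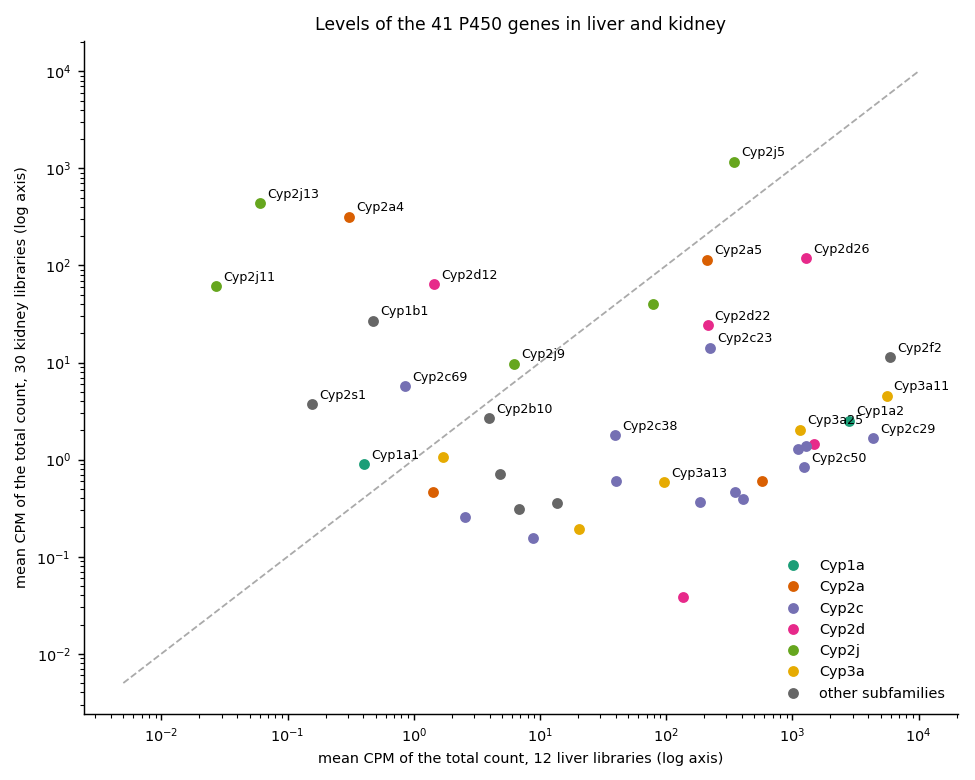
Mean level of each of the 41 genes in 12 liver libraries (x axis) and 30 kidney libraries (y axis), in CPM of the total count on log axes; each point is a gene, coloured by subfamily, and the dashed line marks equal levels. Cyp2j13, Cyp2a4 and Cyp2j11 lie far above the line and Cyp2f2, Cyp3a11, Cyp2c29 and Cyp1a2 far below it.

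The rest of the kidney order was Cyp2d26 at 118 CPM, Cyp2a5 (coumarin hydroxylase) at 115 CPM, Cyp2d12 at 63.7 CPM, Cyp2j11 at 61.2 CPM and Cyp2j6 at 39.8 CPM, followed by Cyp1b1, a dioxin-inducible member of tissues outside liver, at 26.9 ± 7.45 CPM. Cyp2j11, with 4387 counts in kidney, had 1 in liver, and Cyp2s1, an epithelial member, had 261 counts in kidney and 5 in liver. Cyp2r1, which hydroxylates vitamin D, stood at 13.5 ± 2.94 CPM in liver and 0.355 ± 0.730 CPM in kidney, and Cyp2u1, a fatty acid hydroxylase, at 4.86 ± 2.5 CPM in liver and 0.717 ± 0.871 CPM in kidney. Cyp1a1, the classic marker of aryl hydrocarbon receptor activation, had 12 counts in the 12 liver libraries and 62 in the 30 kidney libraries. Cyp2b9 and Cyp2b13, known as female-predominant liver members, had 7 and 4 counts in the whole table and fell below the limit.

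In liver, 31 of the 41 members passed the filter on low counts and were tested; all levels from here are CPM scaled by TMM. The members took a smaller share of counts in each AS-703026 liver but 1 than in any liver of the other diets: 1.85%, 2.71%, 1.97% and 2.34% with AS-703026, against 3.14%, 2.99%, 3.26% and 3.62% with enzastaurin and 2.65%, 3.56%, 3.33% and 3.58% with GDC-0941. The second AS-703026 liver and the first GDC-0941 liver overlapped. These are shares of bulk tissue, in which fewer cells of a type and less RNA per cell cannot be told apart. A share of the total also falls when other RNAs rise. The acute-phase RNAs described below summed to 49443 to 202323 CPM with AS-703026 and 28133 to 36291 CPM with the other diets. Their part in these shares was not tested.

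Cyp2d22 was lower with AS-703026. This gene, described as a mouse counterpart of human CYP2D6, lies on chromosome 15 between 82370527 and 82380260. It stood at 138, 150, 168 and 140 CPM in AS-703026 livers, at 233, 238, 246 and 265 CPM in enzastaurin livers and at 275, 244, 195 and 268 CPM in GDC-0941 livers. All 4 AS-703026 livers lay below all 8 others. The log2 change was -0.72 ± 0.12 (SE) against enzastaurin and -0.72 ± 0.12 against GDC-0941, with adjusted p = 0.00417 and 0.00442 (edgeR's quasi-likelihood test, Benjamini-Hochberg over 9490 genes).

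Cyp3a25, a liver member of the Cyp3a cluster on chromosome 5 between 145977194 and 146009618, was also lower. Its levels were 787, 852, 935 and 915 CPM with AS-703026, 1095, 1220, 1330 and 1522 CPM with enzastaurin and 1009, 1374, 1366 and 1357 CPM with GDC-0941. No AS-703026 liver reached the lowest of the others. The log2 change was -0.57 ± 0.13 against enzastaurin and -0.55 ± 0.13 against GDC-0941 (adjusted p = 0.0321 and 0.0373, same test). The Cyp3a25 call was lost in each comparison when any of 7 of the 8 libraries was left out (adjusted p up to 0.111), while Cyp2d22 kept its call in all of these fits (adjusted p 0.00261 to 0.0180).

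These were the members past the threshold in liver: 2 of 31 were lower and 0 higher with AS-703026 in each comparison, beside 1.03% of all genes lower and 1.93% higher against enzastaurin, and 1.18% lower and 2.04% higher against GDC-0941. The comparisons share the 4 AS-703026 libraries and are not independent. At an unadjusted p under 0.05, 15 of 31 members were lower in each comparison, beside 7.65% and 7.47% of all genes, and 3 were higher against enzastaurin and 1 against GDC-0941, beside 8.56% and 8.62%. The median log2 change of the tested members was -0.45 against enzastaurin and -0.39 against GDC-0941, and that of all genes -0.01 and -0.00. The counts depend on the method: DESeq2 called 8 of 31 members against enzastaurin (4.19% of all genes) and 9 against GDC-0941 (4.73%), and edgeR without the filter on low counts called 17 and 16 of 41 (2.71% and 3.09%).

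**Figure D2:**
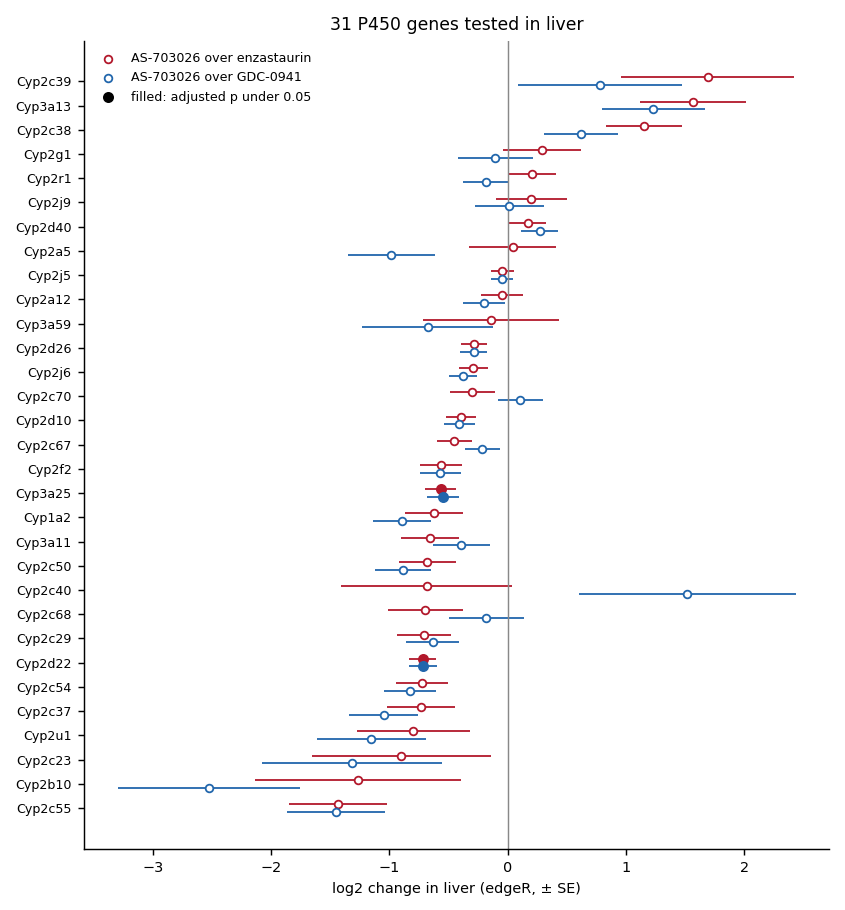
Log2 change of the 31 members tested in liver, AS-703026 over enzastaurin (red) and over GDC-0941 (blue), with bars of 1 SE; filled points passed an adjusted p of 0.05. Cyp2d22 and Cyp3a25 are filled in both, and most points lie left of 0. Cyp3a13, Cyp2c38, Cyp2c39, Cyp2d40 and Cyp2j9 lie right of 0 in both.

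The most abundant members had negative changes that did not pass. Cyp2f2 had 3722, 5065, 4534 and 4760 CPM in AS-703026 livers, 8545, 6709, 5577 and 5883 CPM in enzastaurin livers and 5792, 8013, 5503 and 7532 CPM in GDC-0941 livers. The AS-703026 livers lay below all the others, with log2 changes of -0.56 ± 0.17 and -0.57 ± 0.18 (adjusted p = 0.112 and 0.0986). Cyp1a2 had 1843, 2516, 1658 and 1640 CPM with AS-703026, 3118, 1977, 3285 and 3397 CPM with enzastaurin and 2629, 2874, 5615 and 3110 CPM with GDC-0941. Its groups overlapped against enzastaurin and did not against GDC-0941, with log2 changes of -0.62 ± 0.24 and -0.89 ± 0.24 (adjusted p = 0.214 and 0.0613).

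Cyp3a11 had 3643, 5335, 4029 and 4207 CPM with AS-703026, 3629, 7704, 6600 and 9238 CPM with enzastaurin and 4208, 6243, 5205 and 6946 CPM with GDC-0941. The first enzastaurin liver was as low as the lowest AS-703026 liver, and the changes were -0.66 ± 0.24 and -0.39 ± 0.24 (adjusted p = 0.186 and 0.469). Cyp2c29 averaged 3099 ± 1045 CPM with AS-703026, 5062 ± 1199 CPM with enzastaurin and 4810 ± 817 CPM with GDC-0941 (SD, n = 4 each), with adjusted p = 0.121 and 0.157. Among its neighbours on chromosome 19, Cyp2c54, Cyp2c50 and Cyp2c37, a group of arachidonic and linoleic acid oxidases, had changes between -0.68 and -0.73 against enzastaurin and between -0.82 and -1.05 against GDC-0941, with adjusted p between 0.0565 and 0.217.

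Cyp2c55, an inducible member, was rare: it had 2.19, 4.53, 1.99 and 7.98 CPM with AS-703026, 9.20, 16.6, 9.92 and 8.13 CPM with enzastaurin and 7.59, 15.5, 12.8 and 8.73 CPM with GDC-0941. The fourth AS-703026 liver lay within the GDC-0941 range, and the log2 changes were -1.44 ± 0.42 and -1.45 ± 0.41 (adjusted p = 0.0845 and 0.0724). Cyp2b10, the classic target of the constitutive androstane receptor, averaged 1.82 ± 2.42 CPM with AS-703026, 3.01 ± 1.82 CPM with enzastaurin and 7.02 ± 5.00 CPM with GDC-0941. The groups held 11, 34 and 85 counts in that order, and the AS-703026 mean was near the level of 3 counts (0.688 to 2.77 CPM in liver). The changes of Cyp2b10 did not pass (adjusted p = 0.535 and 0.0961).

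Groups of members did not overlap, with AS-703026 lower, for 7 of 31 against enzastaurin (4.05% of all genes) and 5 of 31 against GDC-0941 (4.62% of all genes). Cyp2d22, Cyp3a25 and Cyp2f2 were in both sets; Cyp2c54, Cyp2c55, Cyp2c67 and Cyp2d26 were in the set against enzastaurin, and Cyp1a2 and Cyp2d10 in the set against GDC-0941. Without overlap and with AS-703026 higher were Cyp2c38 against enzastaurin (1 of 31; 4.58% of all genes) and Cyp2d40 against GDC-0941 (1 of 31; 5.09% of all genes).

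**Figure D3:**
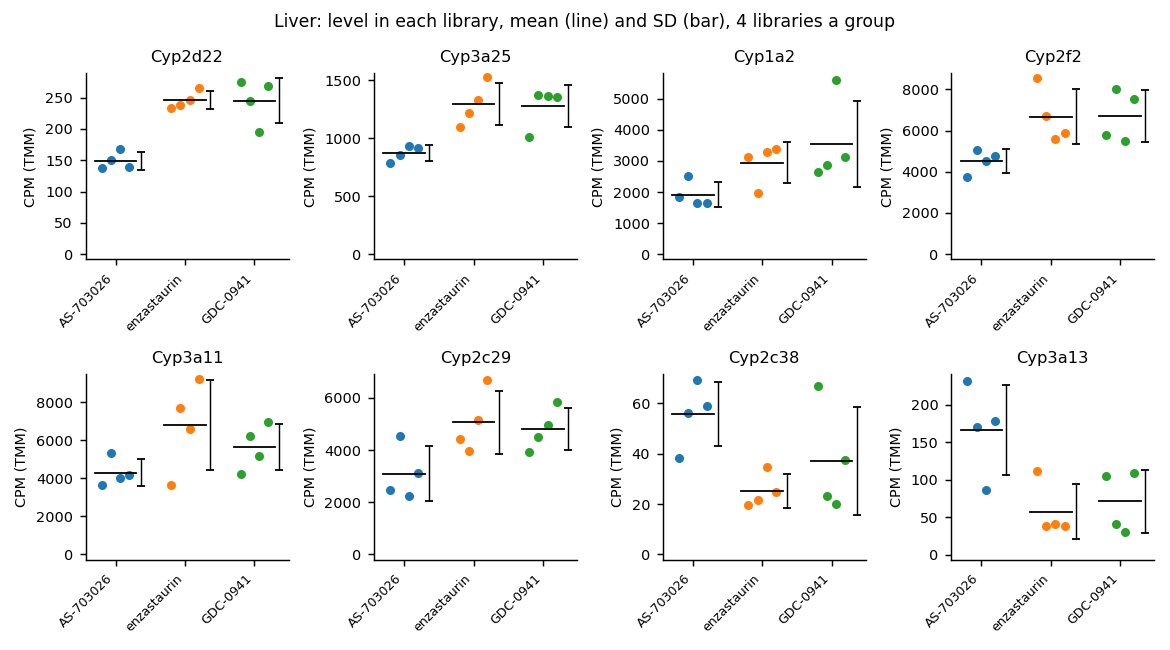
TMM-scaled CPM of 8 members in each liver library (points), by diet, with the group mean as a line and the SD as a bar, 4 libraries a group. Cyp2d22 and Cyp3a25 show AS-703026 livers below all others, Cyp1a2, Cyp2f2, Cyp3a11 and Cyp2c29 show lower means with AS-703026, and Cyp2c38 and Cyp3a13 show higher means with it.

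Some members had higher values with AS-703026. Cyp3a13, a Cyp3a member apart from the main cluster and also known from intestine, had 231, 170, 86.6 and 178 CPM with AS-703026, 112, 37.9, 41.3 and 38.2 CPM with enzastaurin and 105, 40.3, 30.1 and 109 CPM with GDC-0941. The third AS-703026 liver lay within the range of the others. The log2 changes were 1.57 ± 0.45 and 1.23 ± 0.44 (adjusted p = 0.0791 and 0.159), and with the replicate number as a block the gene passed in both. Cyp2c38, another Cyp2c member, had 38.5, 56.2, 69.2 and 59.0 CPM with AS-703026, 19.5, 21.8, 34.7 and 25 CPM with enzastaurin and 67.1, 23.2, 20.2 and 37.5 CPM with GDC-0941, with changes of 1.15 ± 0.32 and 0.62 ± 0.31 (adjusted p = 0.0729 and 0.356). It was clear of the enzastaurin livers and overlapped those of GDC-0941.

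Other lists moved in the same livers. The acute-phase list holds plasma proteins that liver makes in inflammation and other genes, among them Il1r1, Socs3, Steap4, Mt1 and Mt2. Of its 30 genes tested, 25 were higher with AS-703026 in each comparison and 0 lower. The median log2 changes were 2.14 against enzastaurin and 2.28 against GDC-0941. Their summed level was 202323, 49443, 141724 and 79104 CPM in the AS-703026 livers, against 29189 to 36291 CPM with enzastaurin and 28133 to 30749 CPM with GDC-0941.

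The neutrophil markers S100a8 and S100a9 were both higher with AS-703026 in both comparisons, and the 5 neutrophil markers summed to 29.9 to 80.4 CPM with AS-703026, against 2.41 to 10.2 CPM with enzastaurin and 1.36 to 4.16 CPM with GDC-0941. Both tested erythroid markers were higher with AS-703026 against enzastaurin (Hbb-bs 1.40, Hba-a1 1.31) and 0 of 2 passed against GDC-0941; the 3 erythroid markers summed to 4090 to 6720 CPM with AS-703026, 1121 to 2928 CPM with enzastaurin and 1704 to 3908 CPM with GDC-0941. Against GDC-0941, 1 of 5 macrophage markers (C1qa, 0.82) and 1 of 4 stellate cell markers (Dcn, 0.59) were higher, and 0 of either list passed against enzastaurin. The stellate list summed to 418 to 573 CPM with AS-703026, 365 to 416 CPM with enzastaurin and 312 to 384 CPM with GDC-0941, and the macrophage list to 196 to 317 CPM, 158 to 300 CPM and 128 to 194 CPM in the same order. Of 8 hepatocyte markers, Fgb (a fibrinogen chain and also an acute-phase gene) was higher in both comparisons and none was lower; they summed to 75553 to 85147 CPM with AS-703026, 87657 to 100165 CPM with enzastaurin and 82175 to 97421 CPM with GDC-0941. Counts assigned to gene models made of satellite-like repeats were 0.857% to 1.77% of AS-703026 libraries, 0.124% to 0.602% of enzastaurin libraries and 0.329% to 0.645% of GDC-0941 libraries, so this share and the diet cannot be told apart in liver. With the share as a covariate the changes of Cyp2d22 were -0.65 and -0.67 and those of Cyp3a25 -0.64 and -0.60, none past the threshold (adjusted p 0.172 to 0.495), while 1 and 22 genes were called in all. The part of acute-phase RNA, of these other cell types or of satellite-like counts in the P450 values was not tested.

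Zonation was covered by lists of genes outside the families. Of 19 pericentral genes tested, 0 passed against enzastaurin, and Cyp7a1 (the rate-limiting enzyme of bile acid synthesis) was lower against GDC-0941, at -1.20. Of 19 periportal genes tested, Etnppl was lower in both comparisons, at -1.22 and -1.27. Medians were -0.11 and -0.27 for the pericentral list and -0.11 and 0.03 for the periportal one.

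Among the partners of the P450s, 1 of 10 tested genes passed against enzastaurin: Por, the reductase, was higher with AS-703026, at 0.73 ± 0.15 (adjusted p = 0.0143), and its value against GDC-0941 was 0.28 ± 0.14 (adjusted p = 0.372). Against GDC-0941, Cyb5r3 (cytochrome b5 reductase) was lower at -0.45 and Pgrmc1 (a haem-binding membrane protein) lower at -0.38, adjusted p = 0.0161 and 0.0454. Of 25 receptors and liver factors that control the families, 20 were tested and 0 passed in either comparison. Nr1i3 was not among those tested in liver, so nothing is said of its change. Ahr had 0.45 ± 0.17 and 0.66 ± 0.17 (adjusted p = 0.209 and 0.0560), Nr1i2 had 0.02 ± 0.13 and 0.10 ± 0.13, and Hnf4a, a master factor of hepatocytes, had 0.07 ± 0.15 and 0.13 ± 0.15.

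Some genes of other drug-handling lists passed in the same comparisons, all of them lower. Among all genes tested, 1.03% were lower against enzastaurin and 1.18% against GDC-0941. Of 14 glucuronosyl- and sulfotransferases tested, Ugt2b1 and Sult1b1 were lower in both comparisons (-1.17 and -0.84 against enzastaurin, -1.10 and -1.02 against GDC-0941), and Ugt2b5 and Ugt2b36 were also lower against GDC-0941; 0 were higher. Of 18 flavin monooxygenases, carboxylesterases, epoxide hydrolases and aldehyde oxidases, the oxidases Aox1 (-0.90 and -1.23) and Aox3 (-0.99 and -1.24) were lower in both, with 3 carboxylesterases more against enzastaurin and 1 against GDC-0941. Of 13 transporters, the uptake carrier Slco1a1 (-1.03 and -1.06) and the efflux carrier Slc47a1 (-0.60 and -0.77) were lower in both. Of 20 tested P450 genes of other families, which act on sterols, bile acids and fatty acids, 6 were lower against enzastaurin and 4 against GDC-0941, with medians of -0.76 and -0.58.

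Between enzastaurin and GDC-0941, 0 of 31 members passed, as did 0 of all genes; 2 members (8.03% of all genes) had an unadjusted p under 0.05, DESeq2 called 0 members and 0.190% of all genes, and edgeR without the filter called 4 of 41 members (0.833% of all genes). Cyp2a5 had 157, 100, 136 and 222 CPM with enzastaurin and 199, 227, 276 and 551 CPM with GDC-0941. The groups overlapped, and 1 GDC-0941 liver was far above the rest of its group; the log2 change was -1.03 ± 0.36 (adjusted p = 0.522). Cyp2c40, whose 3′ end is close to that of Cyp2c67, had 2.20 ± 0.83 (adjusted p = 0.534) at levels of 1.20 to 10.3 CPM with enzastaurin and 0 to 2.18 CPM with GDC-0941. For the abundant Cyp2f2 and Cyp3a11 the differences were -0.01 ± 0.17 and 0.27 ± 0.24 (SE), which leaves room for changes of this size in either direction. Across all 3 diets the F test called Cyp2d22 and Cyp3a25 (2 of 31, beside 3.20% of all genes; adjusted p = 0.00390 and 0.0395).

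Members varied unequally within a diet. The within-group SD of log2(CPM + 1) in liver ran from 0.10 for Cyp2j5 to 1.36 for Cyp2c39, a retinoic acid hydroxylase, with 1.35 for Cyp2c23 (an epoxygenase); the median of all tested genes was 0.275, and the SD of Cyp2c39 and Cyp2c23 was above that of 99.5% of them. Cyp2c23 had 48.1, 77.0, 43.6 and 325 CPM with AS-703026, 406, 377, 83.1 and 65.9 CPM with enzastaurin and 109, 536, 496 and 99.3 CPM with GDC-0941. Cyp2c39 had 97.9, 49.8, 80.6 and 28.1 CPM with AS-703026, 7.58, 8.04, 43.0 and 22.3 CPM with enzastaurin and 77.9, 6.00, 6.72 and 64.4 CPM with GDC-0941. The fourth AS-703026 liver, the first and second enzastaurin livers and the second and the third GDC-0941 livers had the highest Cyp2c23 and the lowest Cyp2c39 of their diets, a pattern noticed in these values and given without a test. Cyp2j5 in the same livers stayed between 293 and 373 CPM.

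**Figure D4:**
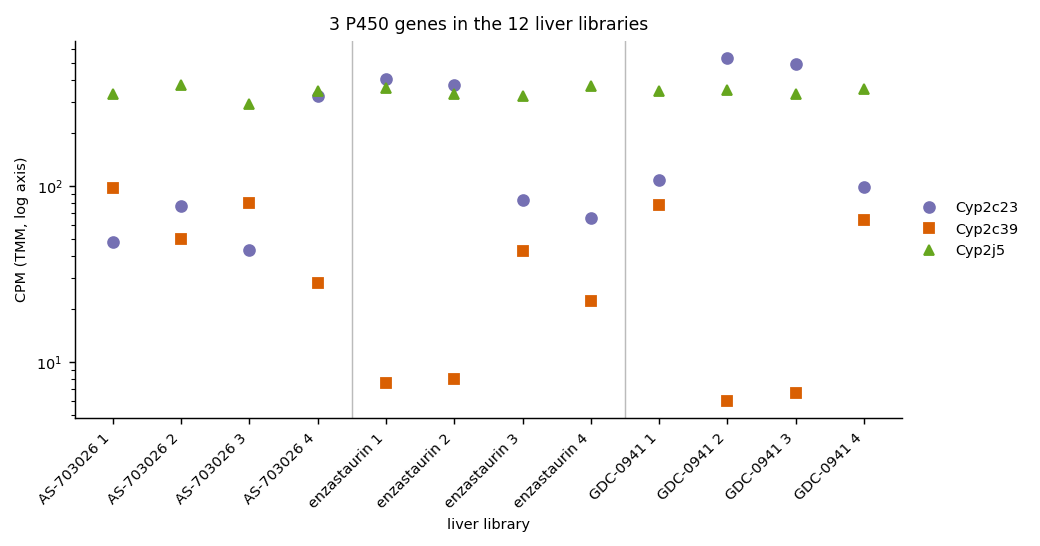
TMM-scaled CPM (log axis) of Cyp2c23, Cyp2c39 and Cyp2j5 in the 12 liver libraries, AS-703026 left, enzastaurin middle, GDC-0941 right. Cyp2j5 stays between 293 and 373 CPM, while Cyp2c23 spans 43.6 to 536 CPM and Cyp2c39 spans 6.00 to 97.9 CPM within the same diets.

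In kidney 17 of the 41 members passed the filter, and 0 of 17 passed the threshold against control with any of the 6 compounds, between AZD8055 and KU0063794, in the F test over all 7 groups, or in the interaction of compound and tissue (0 of 38 tested). For all genes the shares called were 0.922% with AS-703026, 0.0427% with ascorbyl-palmitate, 5.46% with AZD8055, 0 with enzastaurin, 0.137% with GDC-0941, 0.0427% with KU0063794, 0.631% for AZD8055 against KU0063794, 2.51% in the F test and 0.163% in the interaction. At an unadjusted p under 0.05 there were 1, 3, 3, 1, 1 and 2 members for the 6 compounds in that order, beside 15.1%, 12.5%, 20.0%, 7.81%, 13.1% and 9.75% of all genes, then 1 of 17 for AZD8055 against KU0063794 (10.4%), 5 of 17 in the F test (16.3%) and 6 of 38 in the interaction (10.0%). DESeq2 called 1 member with AS-703026 (2.20% of all genes), 1 for AZD8055 against KU0063794 (0.196%) and 2 in the F test (4.48%), and 0 in the other kidney comparisons (0.230% to 5.40%) and the interaction (1.07%). Without the filter, with all 41 members tested, edgeR called 1 with AS-703026 (0.907% of all genes), 1 with ascorbyl-palmitate (0.475%), 4 with AZD8055 (2.32%), 2 with enzastaurin (0.175%), 0 with GDC-0941 (0.214%) and 0 with KU0063794 (0.150%). It called 3 for AZD8055 against KU0063794 (1.23%), 12 in the F test (3.66%) and 11 in the interaction (1.54%).

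Cyp2j13 came closest. This kidney member of the Cyp2j cluster, on chromosome 4 between 96027534 and 96077546, had 358, 241, 268 and 150 CPM with AS-703026, against a lowest of 450, a median of 527 and a highest of 623 CPM in the 6 controls. The groups did not overlap (1 of 17 members, beside 1.86% of all genes). The log2 change was -1.06 ± 0.27, with adjusted p = 0.0531, and all 4 AS-703026 kidneys lay below the mean of the controls. With DESeq2 the adjusted p was 0.0111, without the 2 kidney libraries that held liver transcripts it was 0.0118, and over the fits that left out 1 library each it ran from 0.0328 to 0.292. With ascorbyl-palmitate the gene had 298, 489, 269 and 343 CPM, overlapping the controls, at -0.60 ± 0.27 (adjusted p = 0.341).

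The satellite-like share was 0.287% to 29.0% in the AS-703026 kidneys and 0.0555% to 12.5% in the controls, and with it as a covariate the Cyp2j13 change was -1.003 (adjusted p = 0.0773). The 6 proximal tubule markers summed to 34739 to 48805 CPM with AS-703026 and 38701 to 52769 CPM in controls, and 0 of 6 passed. For other nephron segments, the 2 thick ascending limb markers summed to 2223 to 2662 CPM with AS-703026 and 1068 to 1699 CPM in controls, without overlap, though 0 of 2 passed. The collecting duct markers Aqp2 and Avpr2 summed to 120 to 1333 CPM with AS-703026 and 53.2 to 78.2 CPM in controls, and Aqp2 was higher (log2 2.69, adjusted p = 0.0203). The part of nephron segments in the Cyp2j13 value was not tested. Cyp2j5, the proximal tubule member of the same cluster, had 1027, 1051, 1138 and 775 CPM with AS-703026, against 968 to 1236 CPM in controls (median 1170), a change of -0.20 ± 0.22 (adjusted p = 0.708).

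A pair of kidney libraries held liver transcripts. The first enzastaurin kidney had 630 CPM of Alb and the fourth AZD8055 kidney 236 CPM, against at most 11.8 CPM in the controls. They had 66.4 and 41.1 CPM of Cyp3a11, 46.0 and 22.1 CPM of Cyp1a2 and 40.9 and 37.5 CPM of Cyp2f2, against at most 4.12, 0.737 and 14.1 CPM in the controls. The sum of all 8 hepatocyte markers was 1993 CPM in the enzastaurin library, 694 CPM in the AZD8055 library and 401 to 887 CPM in controls. It was 1526 CPM in the third GDC-0941 kidney and 1524 CPM in the fourth KU0063794 kidney. The sum therefore does not set the AZD8055 library apart. The AZD8055 library also had 17334 CPM of the adipocyte gene Fabp4, against at most 95.5 CPM in the controls, and 331 CPM of Cyp2j5, against 1225 to 1313 CPM in the other AZD8055 kidneys. Cyp2f2 had changes of 1.18 ± 0.43 with AZD8055 and 0.95 ± 0.43 with enzastaurin (adjusted p = 0.104 and 0.598), and 0.62 and 0.28 without both libraries.

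**Figure D5:**
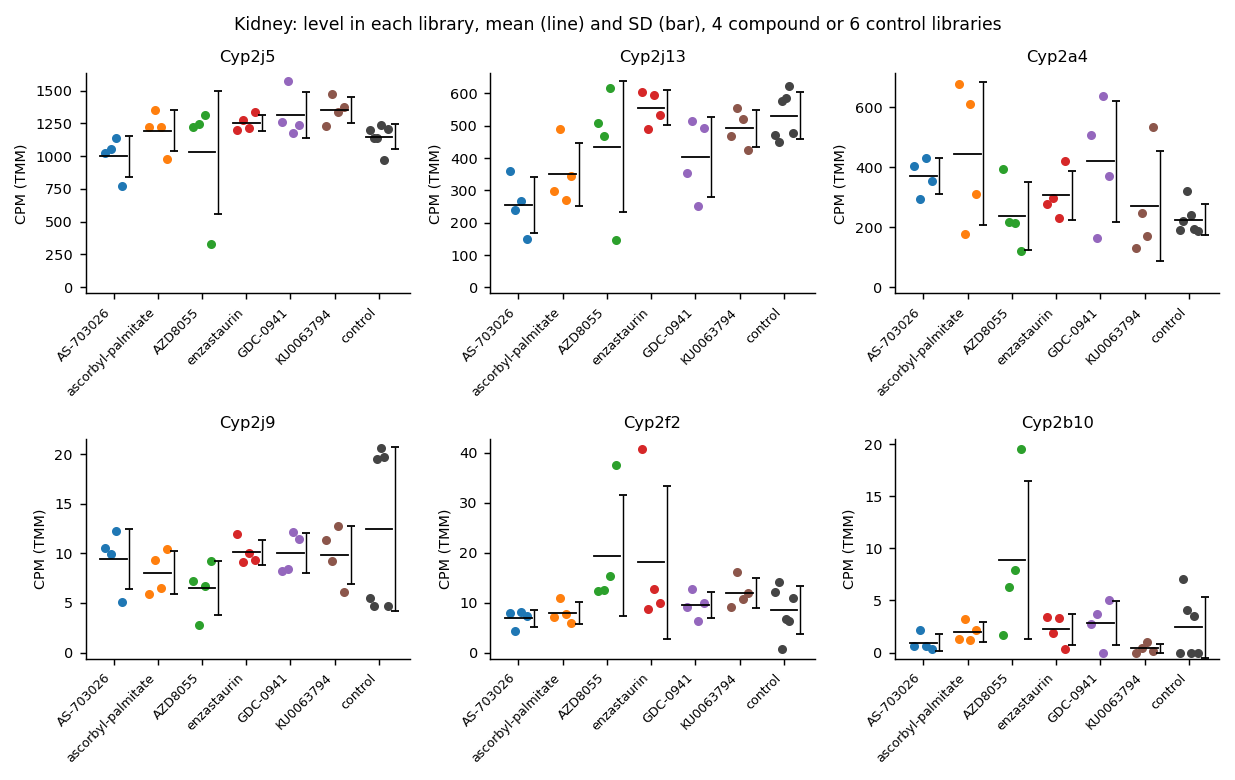
TMM-scaled CPM of 6 members in each kidney library (points) with group mean (line) and SD (bar), 4 libraries a compound and 6 controls at the right. All 4 AS-703026 kidneys lie below the controls for Cyp2j13, and single AZD8055 and enzastaurin libraries lie far above their groups for Cyp2f2.

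Cyp2b10 lay apart between the mTOR inhibitors, whose doses differed. It had 1.71, 6.27, 7.94 and 19.5 CPM with AZD8055 at 20 ppm and 0, 0.462, 1.00 and 0.173 CPM with KU0063794 at 10 ppm, against a lowest of 0, a median of 1.74 and a highest of 7.07 CPM in controls. The mTOR inhibitor groups did not overlap (1 of 17 members, beside 1.48% of all genes), and each overlapped the controls. The log2 change between them was 4.16 ± 1.07 (adjusted p = 0.0558); KU0063794 libraries were at or near the level of 3 counts (0.527 to 3.47 CPM in kidney), so its size depends on how low counts are treated. Without the fourth AZD8055 kidney, which had the highest value, it was 3.38 with adjusted p = 1.00.

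Cyp2a4 had the highest single values with ascorbyl-palmitate, GDC-0941 and KU0063794. It had 677, 178, 612 and 312 CPM with ascorbyl-palmitate and 507, 165, 636 and 370 CPM with GDC-0941, against a lowest of 187, a median of 207 and a highest of 320 CPM in controls. Both groups overlapped the controls, with changes of 0.98 ± 0.37 and 0.89 ± 0.37 (adjusted p = 0.248 and 0.286). Cyp2c69 had 10.2, 15.7, 10.4 and 7.80 CPM with KU0063794, above all controls (0.814 to 5.82 CPM), at 1.77 ± 0.53 (adjusted p = 0.235; 1 of 17 without overlap, beside 0.964% of all genes); its 3′ end shares 43.0% of its words with Cyp2c40. Cyp1b1, the family 1 member of kidney, had changes between -0.28 and 0.34 over the 6 compounds (adjusted p at least 0.574), and Cyp1a1 was too rare to test, at 1.22 to 2.99 CPM with AZD8055 and 0 to 3.47 CPM in controls.

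In the interaction, which asks whether differences among AS-703026, enzastaurin and GDC-0941 differ between the tissues, 38 members were tested. Cyp2d22, lower in liver with AS-703026, had 45.4, 34.1, 17.9 and 12.8 CPM in AS-703026 kidneys, 31.5, 28.9, 19.7 and 18.3 CPM in enzastaurin kidneys and 10.0, 26.7, 12.1 and 29.0 CPM in GDC-0941 kidneys. These groups overlapped, and the interaction had an unadjusted p of 0.0440 and an adjusted p of 0.487 (edgeR). Cyp2c55 had the smallest p of the members, 0.0265 (adjusted p = 0.429). The liver difference of Cyp2d22 was therefore not shown to differ from that in kidney.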

How the data were processed

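The values used were whole-number counts per gene for 42 libraries, as deposited by the authors. Per the labels' protocols, RNA was extracted with a PureLink RNA Mini Kit and made into CEL-seq libraries. Tools listed without their roles in the submitters' processing notes are featureCounts 1.5, STAR 2.5.2b, Trimmomatic 0.32 and bcl2fastq 1.8.4, with the build mm10. Which gene annotation was counted against, whether strand was used, and how molecular identifiers were handled is not given in the sources used here; without strand, reads of overlapping genes cannot be told apart.

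Each tissue was fitted with all its groups in edgeR 4.0.16 (limma 3.58.1, R 4.3.3): filterByExpr, TMM scaling and the quasi-likelihood test, with Benjamini-Hochberg adjustment over all genes tested (11719 in kidney, 9490 in liver, 12262 in the interaction) and a threshold of 0.05. Libraries of a liver group varied less (common biological coefficient of variation 0.191) than those of a kidney group (0.294). A fitted change of a gene with libraries at 0 depends on edgeR's prior count and is no bound. DESeq2 1.42.0, another scaling, no filter, a replicate block, the satellite-like share as a covariate and leaving out libraries were tried as alternatives. Simulated counts with known changes were used to test the fit. In liver (AS-703026 against enzastaurin, 9337 genes) it recovered 58% of 2-fold and 91% of 4-fold changes, with 5.70% of calls false. In kidney (AS-703026 against control, 11246 genes) it recovered 58% and 87%, with 3.97% of calls false, and in the interaction 16% and 72% (11757 genes). Chi-square values per gene between libraries of a group were 4.09 or more, above sampling noise, so every library counted once. Floors of 3 counts cover counting error only.

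The members and lists were chosen with earlier results of these data known. Named were members past the threshold, the next by p up to 3 in a comparison, the 8 of highest level in each tissue, classic inducible, female-predominant and orphan members, and up to 5 passing genes of each list; other members were named after their values were seen.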

Additional observations from a re-analysis of the deposited data

Results flagged for a closer look

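In 9 of the 69 groups of 4 to 10 libraries examined, the highest or lowest library stood farther from the rest of its group than Dixon's limit allows; chance gives about 1 in 20. In liver, the first enzastaurin library had 1873 CPM of Cyp2c50 (the others 1082 to 1196 CPM), 112 CPM of Cyp3a13 (37.9 to 41.3 CPM) and 2235 CPM of Cyp2c70 (1210 to 1329 CPM). The first GDC-0941 liver had 1009 CPM of Cyp3a25 (1357 to 1374 CPM in the others), and the third had 5615 CPM of Cyp1a2 (2629 to 3110 CPM).

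In kidney, the third AS-703026 library had 51.4 CPM of Cyp2j6 (30.7 to 33.0 CPM in the others). The fourth AZD8055 kidney had 37.5 CPM of Cyp2f2 (12.4 to 15.3 CPM) and 331 CPM of Cyp2j5 (1225 to 1313 CPM), and the first enzastaurin kidney had 40.9 CPM of Cyp2f2 (8.63 to 12.8 CPM). These are the 2 kidney libraries with liver transcripts; the part of those transcripts in the Cyp2j5 value was not tested.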

How the results depend on the processing

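Through the alternatives 46 changes were followed, each of a member in a comparison, and none reversed its sign. Other changes given in the text, among them Cyp2f2 and Cyp3a11 between enzastaurin and GDC-0941, were not followed in this way. Of the values followed, 582 kept their side of the threshold, 55 passed it newly and 18 lost it. A value without an adjusted p was counted as kept. The share of all genes called under the same setting stands in brackets. With DESeq2 the members called numbered 8 (4.19%) for AS-703026 against enzastaurin, 9 (4.73%) against GDC-0941 and 10 (5.25%) in the liver F test, then 1 (2.20%) for AS-703026 kidneys, 1 (0.196%) for AZD8055 against KU0063794 and 2 (4.48%) in the kidney F test. Without the filter they numbered 17 (2.71%), 16 (3.09%), 4 (0.833%, enzastaurin against GDC-0941) and 20 (3.78%) in liver, 1 (0.907%), 1 (0.475%), 4 (2.32%) and 2 (0.175%) for AS-703026, ascorbyl-palmitate, AZD8055 and enzastaurin kidneys, 3 (1.23%) for AZD8055 against KU0063794, 12 (3.66%) in the kidney F test and 11 (1.54%) in the interaction. With satellite-like counts as a covariate they numbered 0 (0.0105%), 0 (0.232%) and 0 (0.0948%) in the first 2 liver comparisons and the liver F test, and 1 (Cyp3a11; 0.253%) in the interaction. Without the 2 kidney libraries holding liver transcripts they numbered 1 (2.70%) with AS-703026 and 1 (0.862%) in the kidney F test, both Cyp2j13. The cause of these shifts was not tested. Leaving out 1 library gave 1 to 4 (1.29% to 3.70%), 1 to 9 (1.54% to 4.69%) and 1 to 5 (1.30% to 3.95%) in the AS-703026 liver comparisons and the liver F test, 0 to 1 in the AS-703026 kidney comparison (0 to 2.07%), AZD8055 against KU0063794 (0 to 2.47%) and the kidney F test (1.15% to 3.32%), and 0 to 0 in the others (0 to 7.02%).

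Replicate numbers are shared between groups, and the labels do not say whether they pair mice. Deviations of same-numbered libraries had a median correlation of -0.0228 in kidney (-0.526 to 0.511) and -0.0286 in liver (-0.177 to 0.149). A median over pairs of libraries cannot exclude that some mice were paired. With the replicate number as a block, 3 (2.10%), 3 (2.76%) and 3 (2.23%) members were called in the first 2 liver comparisons and the liver F test, Cyp3a13 being added, and 0 in kidney (0 to 0.230%). Depth limits the rare members: 24 were too low to test in kidney and 10 in liver.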

Other observations

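These values were picked after they were seen, and those of Cyp3a44 carry no test. Cyp3a44, a member of the Cyp3a cluster too rare to test in liver, had 3.5, 6.34, 2.28 and 3.12 CPM in AS-703026 livers, 1.08, 0, 0.413 and 0.301 CPM in enzastaurin livers and 0.399, 2.18, 0.640 and 0.364 CPM in GDC-0941 livers. Each AS-703026 liver lay above all 8 others, by little at the closest (2.28 against 2.18 CPM). The groups held 32, 4 and 12 counts of the gene in the same order. Of the genes tested, 4.58% were likewise higher without overlap against enzastaurin and 5.09% against GDC-0941. Cyp2j9, a brain-enriched member of the Cyp2j cluster, had 7.26, 2.79, 6.72 and 9.26 CPM in AZD8055 kidneys. Its log2 change against control was -0.89 (adjusted p = 0.210, edgeR's quasi-likelihood test). The 6 control kidneys fell into separate values of Cyp2j9, with 5.49, 4.71 and 4.65 CPM in 3 of them and 19.5, 20.6 and 19.7 CPM in the other 3. That split was not tested.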
